A study of Mus musculus with 12 samples.

Results

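Resistant RR1 cells kept in rapamycin were set against sensitive parent cells that had taken up the drug for a day, so that both sides of the comparison had rapamycin in the medium. The comparison uses 8 of the 12 arrays of the series, chosen by their titles: 4 of RR1 (RR_Rap) and 4 of the sensitive line after 24 h (RS_Rap). All cells are BC3H1, a mouse line from a brain tumour that has features of muscle, grown in DMEM with 20% fetal bovine serum. RS_Rap cells had 100 nM rapamycin for 24 h. RR1 was raised from BC3H1 by culture in 1 µM rapamycin for 6 months, and RR_Rap cells stayed in that dose. Cell line, dose and length of exposure therefore change together and cannot be told apart. The remaining 4 arrays, sensitive cells with DMSO for 24 h (RS_DMSO), enter the estimate of the spread and are given beside the results. The sources used here do not give whether RR1 is 1 clone. No label ties replicates to separate cultures, so the spread that p-values rest on may be technical.

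Rapamycin binds FKBP12 and blocks mTORC1, the kinase complex that couples growth factors and nutrients to protein synthesis. MicroRNAs (miRNAs) are short RNAs that guide Argonaute proteins to messenger RNAs, mainly through their seed, and lower the output of those messages. Several are made from 1 shared precursor transcript, and from each hairpin usually 1 strand is loaded and the other, marked with an asterisk in the array's names, is mostly discarded. The labels give no further aim for this comparison, and the series title names miRNAs as mediators of rapamycin resistance.

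The miRNAs on which the results turn are printed here as mature sequences from RefSeq (GRCm38.p6), with the seed, bases 2 to 8, in capitals. The first set is shown because all its members rose and the first 6 share 1 seed. The miR-17 and miR-106a sequences differ at 1 base and those of miR-19a and miR-19b at 1 base. Those of miR-17, miR-20a and miR-20b differ from each other at 2 bases, so probes of all these miRNAs may share signal.
miR-17: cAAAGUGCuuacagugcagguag
miR-20a: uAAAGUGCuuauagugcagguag
miR-106a: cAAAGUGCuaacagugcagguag
miR-20b: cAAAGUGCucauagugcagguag
miR-106b: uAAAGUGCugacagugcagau
miR-93: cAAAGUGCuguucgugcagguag
miR-18a: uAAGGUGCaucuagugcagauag
miR-19a: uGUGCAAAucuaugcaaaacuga
miR-19b: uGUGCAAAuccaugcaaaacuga
miR-92a: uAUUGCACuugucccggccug
miR-25: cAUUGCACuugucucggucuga
miR-130b: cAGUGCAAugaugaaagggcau
The second set is shown because these miRNAs fell, several of them in pairs with 1 seed, apart from miR-29c, which was not called and is shown for its likeness to miR-29a. miR-221 and miR-222 share the seed and differ at 12 of 23 bases, whereas miR-29a and miR-29c differ at 1 of 22.
miR-221: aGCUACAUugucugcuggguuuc
miR-222: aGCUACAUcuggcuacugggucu
miR-29a: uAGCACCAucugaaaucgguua
miR-29b: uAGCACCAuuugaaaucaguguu
miR-29c: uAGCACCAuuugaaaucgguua
miR-146a: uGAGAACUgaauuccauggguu
miR-146b: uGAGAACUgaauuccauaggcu
miR-125a-5p: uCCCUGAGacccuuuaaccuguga
miR-125b-5p: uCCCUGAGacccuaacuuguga
miR-21: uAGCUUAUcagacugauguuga
miR-22: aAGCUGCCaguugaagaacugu
miR-675-5p: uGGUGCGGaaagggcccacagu
miR-667: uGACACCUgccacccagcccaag

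Each array carried a sample labelled with Hy3 and a common pool labelled with Hy5. Values below are log2 of Hy3 over Hy5 for a probe, so 0 is the level of the pool, and differences are RR_Rap minus RS_Rap with the standard error of a limma fit and its adjusted p. Levels of different miRNAs cannot be ranked on this scale. Median Hy3 signals ran from 114 to 118 on the RR_Rap arrays and from 107 to 114 on the RS_Rap arrays (exact two-sided permutation test, p = 0.0571, the smallest possible being 0.0286). The highest of 7 negative-control probes read 131.25 to 138.5 on RR_Rap and 125.5 to 127.5 on RS_Rap arrays (exact p = 0.0286, adjusted p = 0.133 over 7 such tests). The pool channel was dim for many probes, with median Hy5 signals of 70 to 77.75 against local backgrounds of 77 to 93. Across probes, ratios correlated at 0.864 to 0.960 within RR_Rap and at 0.863 to 0.928 within RS_Rap. RR_Rap 2 was dimmer than the other RR_Rap arrays in both channels for many bright probes, miR-17 and miR-21 among them, but not for miR-668 or miR-494, and RS_DMSO 3 stood apart from its group, with r of 0.574 to 0.709. Each group was scanned as 1 consecutive run with 1 array per slide, so group and scan order cannot be told apart.

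Of 417 mouse probes (414 names), 120 passed an adjusted p of 0.05, or 28.8% of those tested. RR1 was higher for 63 (15.1%) and lower for 57 (13.7%), and the median difference over all probes was 0.03. Thus 52.5% of calls were higher, a share that fell to 17.4% without loess, 19.5% with centring on spike-in probes and 11.0% in the deposited value table. Most differences were small: 80 of the 120 were under 1.5-fold, the median was 1.33-fold, and 21 reached 2-fold, of which 10 were higher and 11 lower. Arrays of both groups did not overlap for 166 probes (39.8%), which includes 115 of the 120 called. Calls were more frequent among the 210 probes above the negative controls, of which 93 were called (44.3%), than among the other 207, of which 27 were called (13.0%). A probe could pass this filter through either group alone, which favours probes that differ, and the background correction shrinks changes of dim probes. Part of this contrast is therefore built in. Against DMSO the same fit called 97 probes for RR1 (23.3%) and 14 for 24 h of drug (3.36%). These comparisons share arrays with the present one, and their values are only set side by side below.

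**Figure D1:**
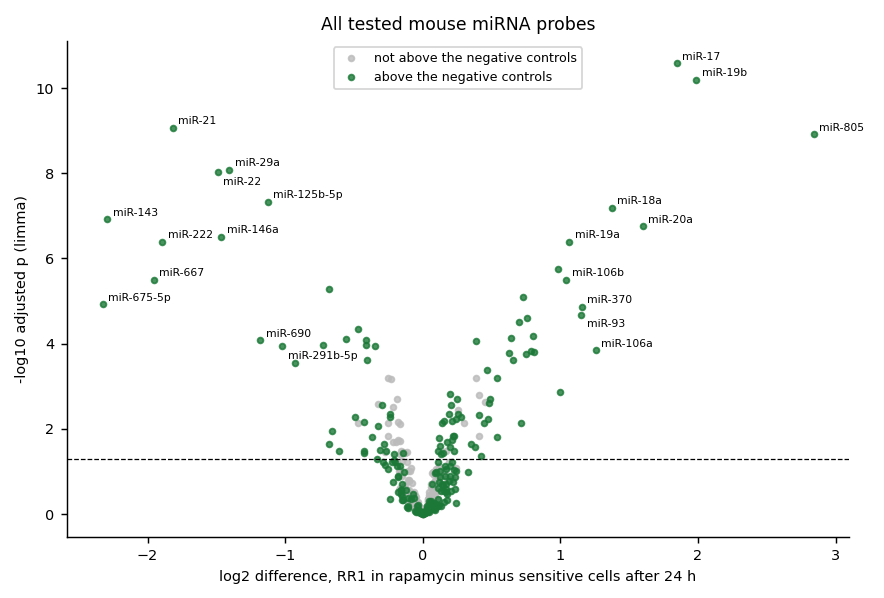
The plot of the size of the difference (horizontal, log2, RR_Rap minus RS_Rap) against minus log10 of the limma adjusted p (vertical) shows 417 mouse probes, with those above the negative controls in green and the threshold of 0.05 dashed. Probes called at 2-fold or more are named: 10 lie to the right and 11 to the left.

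A smaller set passed in the same direction under all 14 other ways of processing the arrays and with each of the 12 arrays left out in turn. It held 32 of the 417 probes (7.67%), 12 higher and 20 lower, and 18 of the 21 calls of at least 2-fold belong to it. The higher ones are miR-805, miR-19b, miR-17, miR-20a, miR-18a, miR-106a, miR-370, miR-93, miR-130b, miR-340-5p, miR-31 and miR-92a. The lower ones are miR-675-5p, miR-143, miR-667, miR-222, miR-21, miR-22, miR-146a, miR-29a, miR-690, miR-291b-5p, miR-221, miR-129-5p, miR-152, miR-689, miR-146b, miR-10a, miR-125a-5p, miR-214, let-7i and miR-145. Of these, miR-10a, miR-152 and miR-689 fall outside the naming rule and were chosen after their values were seen. By contrast, 39 of the 120 calls changed sign under at least 1 other setting.

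**Figure D2:**
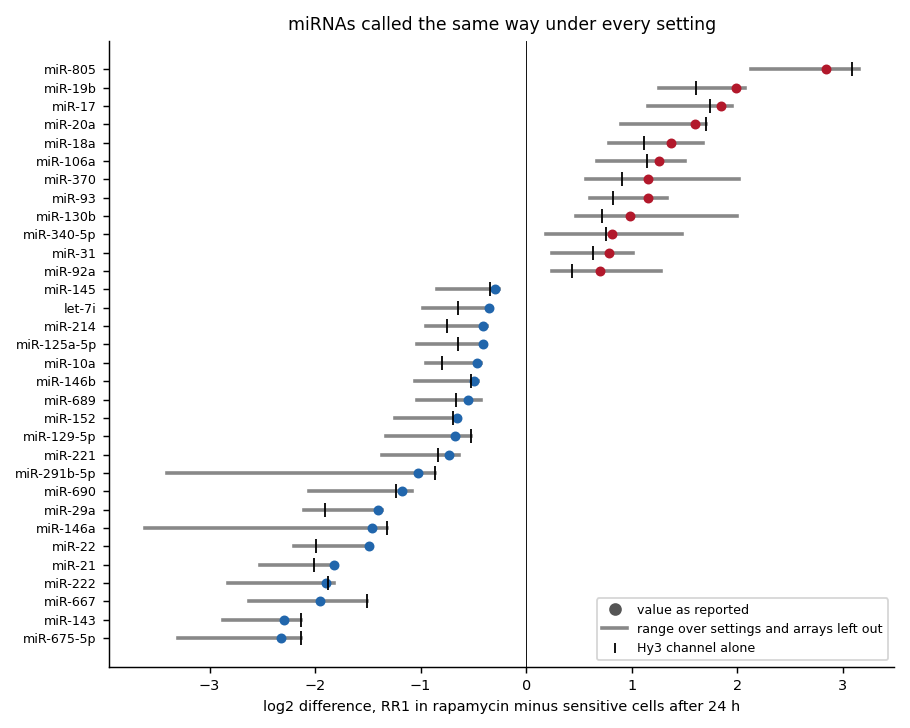
For the 32 miRNAs called the same way under every setting, points give the log2 difference as reported (red higher, blue lower in RR_Rap), grey bars the range over all other settings and arrays left out, and black ticks the Hy3 channel alone. That no bar crosses 0 follows from how these miRNAs were selected. The widest bar is that of miR-291b-5p, from -3.41 to -0.87.

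Most guide strands of the miR-17 type clusters were higher in the resistant line. These 3 related polycistrons, miR-17-92, miR-106a-363 and miR-106b-25, are MYC- and E2F-linked and are known for promoting proliferation and for lowering BIM and p21. Of the 9 tested strands of miR-17-92, 7 rose and 0 fell, with a median difference of 1.06 against 0.03 over all probes. In miR-106a-363 the count was 4 of 6 and in miR-106b-25 it was 4 of 5, where 15.1% of all probes were called higher. miR-19b and miR-92a are made from both of the first clusters and are counted in each. Of the guide strands made from miR-106a-363 alone, miR-106a and miR-20b rose and miR-363 was not called. miR-106a differs from miR-17 at 1 base and miR-20b from miR-17 and miR-20a at 2. Shared probe signal and a rise of the miR-106a-363 cluster itself therefore cannot be told apart.

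The level of miR-17, first in its cluster at chr14:115043671-115044506 (GRCm38.p6), was 0.58, 0.52, 0.56 and 0.50 on RR_Rap arrays 1 to 4 and -1.23, -1.43, -1.28 and -1.28 on the RS_Rap arrays. All RR_Rap arrays lay above the pool and all RS_Rap arrays below it. The difference of 1.84 ± 0.05 (SE, 3.59-fold, 95% interval 3.35 to 3.85, limma adjusted p = 2.62e-11) had the smallest p of all probes. miR-19b, known for driving lymphoma in mouse models, stood at 0.80, 0.71, 0.66 and 0.67 in RR_Rap and at -1.28, -1.31, -1.39 and -1.12 in RS_Rap. Its groups were as cleanly parted, with a difference of 1.99 ± 0.06. miR-20a read 0.66, 0.60, 0.61 and 0.59 against -0.78, -1.25, -1.09 and -0.81, and here the RS_Rap arrays spread more than the RR_Rap arrays. miR-18a, which differs from the others in its seed, read 0.53, 0.44, 0.50 and 0.46 against -0.99, -1.05, -0.76 and -0.74, again without overlap. miR-92a, the last member, rose by 0.70 ± 0.08, from -0.53 to -0.48 in RS_Rap to between 0.08 and 0.35 in RR_Rap. Its Hy3 signal passed the negative controls on 2 of 4 RS_Rap arrays, so the rise starts near background, and its size ran from 0.25 to 1.28 over the settings.

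Signals of single channels show what lies under these ratios. The Hy3 signal of miR-17 was 2593.5, 829.5, 2823 and 2373 on RR_Rap arrays 1 to 4 and 816.75, 795.25, 995.5 and 979.5 on RS_Rap arrays. On RR_Rap 2 it thus lay within the RS_Rap range, and the 1162 of miR-19b on that array lay below its RS_Rap range of 1210 to 1335. The pool channel was low on that array too, at 749 for miR-17 against 2134 to 2443.5 on the other RR_Rap arrays, so that the ratio of 0.52 stood with the rest. Without RR_Rap 2 the fit called 108 probes, 107 of them among the 120.

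In the miR-106b-25 cluster, inside Mcm7 at chr5:138165321-138165818, miR-93 read 0.46, 0.31, 0.46 and 0.39 in RR_Rap against -0.81, -0.74, -0.70 and -0.73 in RS_Rap. miR-106b rose by 1.04 ± 0.09 and miR-25 by 0.47 ± 0.11 (limma adjusted p = 0.00602), and neither group of arrays overlapped the other. The calls of miR-106b and miR-19a were lost only in the deposited value table. The call of miR-25 was lost without loess, with spike-in centring and in that table. From the X chromosome cluster at chrX:52741693-52742567, miR-106a read 0.73, 0.61, 0.70 and 0.69 against -0.56, -0.54, -0.51 and -0.69. miR-20b rose by 1.00 ± 0.18, a call lost without loess, with median centring and in the value table, whereas miR-363 stood at 0.05 (95% interval -0.06 to 0.15), with its Hy3 signal not above the negative controls.

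Passenger strands had smaller values than their partners. miR-17* rose by 0.46 ± 0.07 (limma adjusted p = 0.000408), a call lost in 4 of the 14 settings, and miR-106b* by 0.39 ± 0.06, while miR-18a* stood at 0.10, miR-19a* at 0.07, miR-20b* at -0.01 and miR-93* at -0.17. Of these 6 strands only miR-17* lay above the negative controls. Over the whole array, 71 hairpins had both strands measured. Both strands were called in 5, those of miR-17, miR-106b, miR-145, miR-29b and miR-31, in each case in the same direction, and 0 hairpins had opposite calls. In 25 only the strand named 5p or without asterisk was called, in 9 only the other, and 32 had no call. Of all probes 28.8% were called, and whether calls of both strands go together was not tested.

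**Figure D3:**
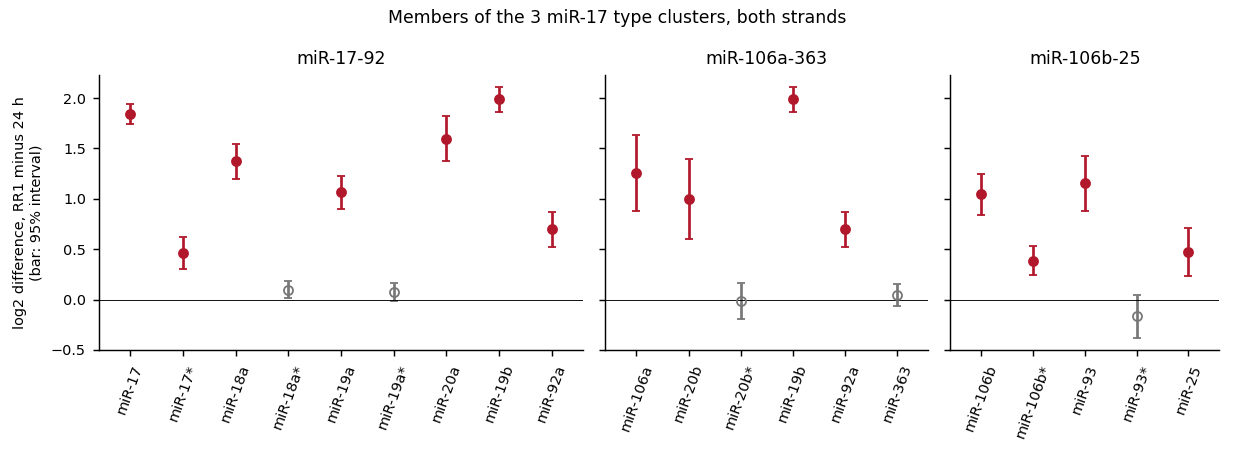
Log2 differences (RR_Rap minus RS_Rap) with 95% intervals for the tested strands of the 3 clusters, in the order of the genes, show called probes filled in red and others open in grey. Guide strands lie between 0.47 and 1.99 apart from miR-363, and uncalled passenger strands lie near 0; miR-19b and miR-92a are the same probes in both panels that show them.

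Grouping the probes by seed put the same set in order. Of the 417 probes, 215 matched a mature sequence, and 28 seeds were shared by at least 2 of them. All 6 probes with the seed AAAGUGC rose, by 1.00 to 1.84, as did both with GUGCAAA (miR-19a and miR-19b). With AUUGCAC, 3 of 6 rose, namely miR-92a, miR-25 and miR-32. The last was chosen after its value was seen, and its call was lost in 5 of the 14 settings. Those of AGUGCAA were divided: miR-130b, miR-301a and miR-130a rose, and miR-721, also chosen after its value was seen and not above the negative controls, fell by 0.19, a sign that turned with median centring (0.03) and in Hy3 alone (0.05). Of 21 seeds with a call, 10 had at least 2 called members, all the same way, and 2 had calls in both directions. The other divided seed was that of let-7. Of the 215 matched probes, 81 were called, where 120 of all 417 were. Several groups hold near copies whose probes may share signal, such as miR-146a and miR-146b, which differ at 2 bases. The 10 also include GUAAACA (miR-30e, miR-30a and miR-30c), whose signs turned without loess.

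Beyond these clusters, miR-805 showed the largest difference. It was listed as a miRNA when the array was designed, but its sequence lies in the mitochondrial genome. It read 0.86, 0.78, 0.90 and 0.90 in RR_Rap and -1.81, -2.30, -2.03 and -1.78 in RS_Rap, with DMSO arrays at -1.54, -1.20, -1.42 and -1.55. RS_Rap thus lay below DMSO, by 0.55 ± 0.11 (limma adjusted p = 0.0212), and RR_Rap above it by 2.29, and the 2.84 ± 0.11 of the present comparison contains both. The Hy3 signal before any normalization was 223.5 to 260 on RS_Rap arrays and 1026.5 to 2266.75 on RR_Rap arrays.

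miR-370 and miR-130b were also higher. miR-370, of the maternally expressed Dlk1-Dio3 region (inside Rian at chr12:109618258-109618336), read 0.38, 0.35, 0.65 and 0.40 against -0.57, -0.64, -0.83 and -0.79. The Hy3 signal of miR-370 passed the negative controls on all 4 RR_Rap arrays but on 2 of 4 RS_Rap arrays, so the rise starts near background. Its size ran from 0.57 to 2.02 over the settings. miR-130b, which targets PPARG among others, read 0.35, 0.07, 0.46 and 0.45 against -0.72, -0.63, -0.64 and -0.62, with RR_Rap 2 lowest of its group. Its Hy3 signal passed the negative controls on all 4 RR_Rap arrays and on 0 RS_Rap arrays, so the 1.98-fold rise starts from background. miR-340-5p, inside Rnf130, rose by 0.81 ± 0.11 and miR-31 by 0.78 ± 0.11. For miR-340-5p too the signal passed on 2 of 4 RS_Rap arrays, and its difference ran from 0.19 to 1.48 over the settings.

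Families with smaller rises depended on how arrays were scaled. In the cluster of miR-183, miR-96 and miR-182, known from sensory organs, miR-96 rose by 0.75, miR-182 by 0.73 and miR-183 by 0.49, with miR-183* at -0.25, but 0 of them were called higher without loess, with spike-in centring, in Hy3 alone or in the deposited value table, where miR-183 turned to -0.07. In the miR-30 family, known for restraining fibrosis genes and autophagy factors, 4 of 7 rose, where 15.1% of all probes did, with a list median of 0.22, and this median turned to -0.22 without loess, -0.17 with median centring, -0.20 with spike-in centring and -0.21 in the value table. Of the 4, miR-30e lost its call without RS_DMSO 1 or any 1 RS_Rap or RR_Rap array (limma adjusted p up to 0.0992) and miR-30a without RS_Rap 1, 2 or 4 or RR_Rap 1 or 2 (up to 0.0791). miR-130a rose by 0.39 and fell in the same 4 settings, to -0.27 at the lowest, while miR-301a rose by 0.54 and lost its call there. Likewise miR-320 rose by 0.64 and miR-668 by 0.62, with both signs reversed in these settings.

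**Figure D4:**
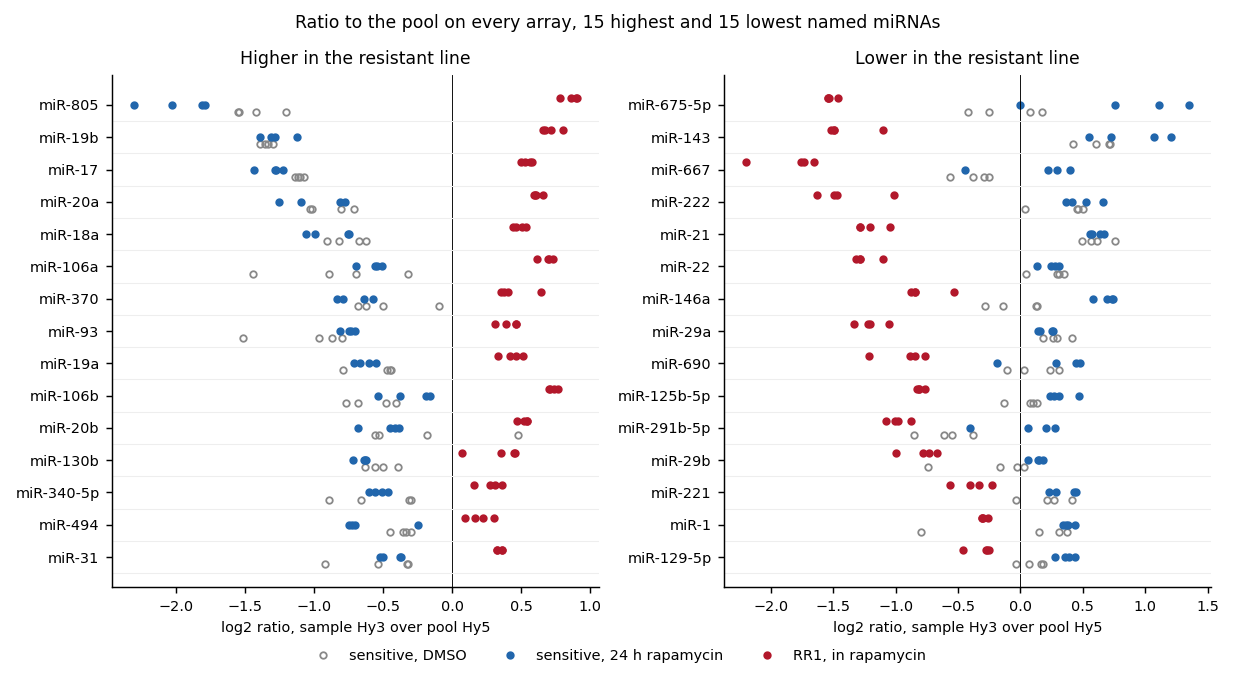
Log2 ratios to the pool on every array (points) are plotted for the 15 called miRNAs highest and the 15 lowest in RR_Rap against RS_Rap, with RR_Rap in red, RS_Rap in blue and DMSO open grey. Red and blue points do not overlap in any line because only miRNAs without overlap were eligible. Grey points lie by the blue ones for most miRNAs but between red and blue for miR-805 and mostly so for miR-146a, miR-291b-5p and miR-675-5p.

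Among the miRNAs lower in RR1, miR-143 and miR-145, markers of smooth muscle that are made from 1 transcript, fell by different amounts. miR-143 read -1.49, -1.10, -1.50 and -1.52 in RR_Rap against 0.72, 0.55, 1.21 and 1.07 in RS_Rap. The groups lay on opposite sides of the pool, a difference of -2.29 ± 0.14 (4.90-fold, 95% interval 3.95 to 6.09, limma adjusted p = 1.21e-07). For miR-145 the arrays read -0.16, -0.11, -0.19 and -0.14 against 0.04, 0.04, 0.23 and 0.26, a difference of -0.29 ± 0.06, and its passenger strand, not above the negative controls, fell by 0.17. The Hy3 signal of miR-145 passed the negative controls on 0 RR_Rap arrays and on 4 RS_Rap arrays, whereas that of miR-143 passed on all 8, so its smaller difference is bounded by background.

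Muscle markers were mostly not detectable. miR-133a and miR-133b passed the negative controls on 0 of 8 arrays, miR-499 on 2 and miR-208 on 3. miR-1 and miR-206, which promote skeletal muscle differentiation, passed on all 8. miR-1 read -0.31, -0.26, -0.31 and -0.30 in RR_Rap against 0.43, 0.34, 0.38 and 0.37 in RS_Rap, and miR-206 read -0.05, 0.22, -0.07 and -0.09 against 0.63, 0.58, 0.64 and 0.62. Neither pair of groups overlapped, with differences of -0.68 ± 0.20 (adjusted p = 0.023) and -0.61 ± 0.19 (adjusted p = 0.0339). The large standard errors include RS_DMSO 3, which read -0.80 for miR-1 and -0.48 for miR-206. The call of miR-1 was lost without RS_Rap 1 or RR_Rap 1, 3 or 4 (adjusted p up to 0.0584) and that of miR-206 without any 1 RS_Rap array or RR_Rap 1, 3 or 4 (up to 0.0835). Without RS_DMSO 3 the adjusted p of miR-1 was 2.78e-07 and that of miR-206 was 2.67e-05. Of the 7 muscle miRNAs tested, 2 fell, where 13.7% of all probes did. miR-208, not above the negative controls by the rule used, rose by 0.41, a call lost in 4 of the 14 settings.

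Markers of other cell types were detectable in part. The 5 epithelial markers of the miR-200 family passed the negative controls on 0 of 8 arrays, as did liver miR-122. Of 6 neuronal markers, miR-128a/128b alone passed on all 8 and rose by 0.25, a call lost without loess and in Hy3 alone. miR-218 passed on 7 arrays, miR-9 on 6, miR-137 on 1 and miR-153 on 0, and these were not called. miR-124, the most typical neuronal miRNA, passed on 0 arrays and fell by 0.12, a sign that turned in Hy3 alone (0.06). That call was lost in 7 of the 14 settings and without any 1 of the 8 RR_Rap and RS_Rap arrays (limma adjusted p up to 0.0879). Of 5 blood markers, miR-142-3p and miR-150 passed on all 8 arrays, and miR-142-3p rose by 0.20, a call lost under 5 of the 14 settings. Their part in the other results was not tested. In such bulk RNA fewer cells of a type and less RNA per cell cannot be told apart.

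miR-21, miR-222 and miR-29a were lower on every RR_Rap array than on any RS_Rap array. miR-21, which is made from a transcript overlapping Vmp1 (chr11:86584067-86584158) and lowers PDCD4, read -1.29, -1.05, -1.20 and -1.29 in RR_Rap against 0.57, 0.67, 0.56 and 0.64 in RS_Rap. Its Hy3 signal was 717.25 to 1229.75 on RR_Rap and 4184.5 to 5940.5 on RS_Rap arrays. These groups were far apart on both scales, and the DMSO arrays, at 0.49 to 0.76, stood with RS_Rap, a difference from it of 0.00 ± 0.07 (adjusted p = 0.986).

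miR-221 and miR-222 lower the CDK inhibitor p27 and lie next to each other on chromosome X (hairpins at chrX:19146294-19146388 and chrX:19146893-19146971). miR-222 read -1.47, -1.02, -1.63 and -1.50 against 0.37, 0.41, 0.52 and 0.66. miR-221 read -0.23, -0.40, -0.56 and -0.33 against 0.23, 0.28, 0.44 and 0.43. Both pairs of groups lay on opposite sides of the pool, with differences of -1.89 ± 0.14 for miR-222 and -0.73 ± 0.10 for miR-221. Each probe passed the negative controls on 3 of 4 RR_Rap arrays and on all RS_Rap arrays.

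In the miR-29 family, which lowers collagens and other matrix genes, miR-29a read -1.20, -1.05, -1.22 and -1.34 against 0.16, 0.26, 0.26 and 0.14. miR-29b read -0.67, -0.79, -1.0 and -0.73 against 0.06, 0.14, 0.18 and 0.14, and both had groups that did not overlap, although miR-29b lost its call in Hy3 alone. miR-29c, which differs from miR-29a at 1 base, stood at -0.17 ± 0.06 (adjusted p = 0.0731), a value called without RS_DMSO 1 (0.00717) and, as lower, in 9 of the 14 other settings, where it ran from -0.58 to -0.15. Its Hy3 signal passed the negative controls on 1 RR_Rap array and 4 RS_Rap arrays. miR-29a and 1 copy of miR-29b lie together at chr6:31062660-31063093, and miR-29c and the other copy at chr1:195037040-195037634. Of the passenger strands, miR-29b* fell by 0.21, a call lost without any 1 of 7 arrays (RS_DMSO 4, RS_Rap 3 or 4, or any RR_Rap array, adjusted p up to 0.111), and miR-29a* and miR-29c* stood at 0.06 and -0.03.

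miR-22 and miR-125b-5p fell as well. miR-22, in the transcript Mir22hg at chr11:75463716-75463810, is known to lower estrogen receptor alpha. It read -1.28, -1.11, -1.29 and -1.32 against 0.25, 0.28, 0.31 and 0.13, with RR_Rap 2 apart from its group yet far below every RS_Rap array. miR-125b-5p read -0.82, -0.77, -0.81 and -0.83 against 0.47, 0.27, 0.31 and 0.24, and its call was lost only in Hy3 alone. miR-125a-5p, with the same seed, fell by 0.41 ± 0.05, while the opposite strands stood at 0.14 for miR-125a-3p and -0.18 for miR-125b-3p, which was called without RS_DMSO 3 (adjusted p = 0.0279) and, as lower, in 7 of the 14 settings, and whose value ran from -0.61 to 0.16 with the sign turned in Hy3 alone.

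For some of these miRNAs RS_Rap arrays also differed from DMSO arrays, though treatment and scan order cannot be told apart there either. miR-146a, which is induced by NF-kB and lowers IRAK1 and TRAF6, read -0.84, -0.53, -0.88 and -0.85 in RR_Rap, 0.69, 0.59, 0.75 and 0.73 in RS_Rap and -0.28, 0.12, -0.14 and 0.13 in DMSO. The DMSO arrays lay between the others: RS_Rap was 0.73 ± 0.10 above DMSO (adjusted p = 0.00247) and RR_Rap 0.73 below it (adjusted p = 0.000161). Its Hy3 signal in RR_Rap, 99 to 102, passed the negative controls on 0 of 4 arrays, so that its fall of 2.76-fold ends in background. miR-146b fell by 0.50 ± 0.11 and miR-155, another NF-kB responsive miRNA, by 0.37 ± 0.10, without overlap of the groups, and the call of miR-155 was lost in Hy3 alone, in the processed signals and without background subtraction.

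miR-675-5p, cut from the imprinted growth-linked RNA H19 (chr7:142577064-142577147), read -1.46, -1.54, -1.54 and -1.55 in RR_Rap against 1.35, 1.11, 0.00 and 0.76 in RS_Rap. The RS_Rap arrays spread over more than 1 log2 unit, and DMSO arrays stood at 0.08, -0.25, -0.42 and 0.17. RS_Rap lay 0.91 ± 0.24 above DMSO (limma adjusted p = 0.05005, not called) and RR_Rap 1.42 below it. The Hy3 signal of miR-675-5p in RR_Rap, 128.75 to 154, passed the negative controls on 3 of 4 arrays, so its fall ends near background. The opposite strand, miR-675-3p, stood at -0.01 (95% interval -0.10 to 0.08), with its Hy3 signal not above the negative controls.

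miR-291b-5p read -0.98, -0.88, -1.01 and -1.07 in RR_Rap and 0.21, 0.28, -0.40 and 0.06 in RS_Rap, with RS_Rap 0.64 above DMSO (adjusted p = 0.0275) and RR_Rap 0.38 below it (adjusted p = 0.067). Its signal passed the negative controls on 0 RR_Rap and 3 RS_Rap arrays. The embryonic stem cell miRNA miR-294 rose by 0.15 but was at -0.000328 in the value table. Its call was lost in 9 of the 14 settings and without any 1 of 7 arrays (each RS_Rap array and RR_Rap 1, 3 and 4, limma adjusted p up to 0.113). miR-17 and miR-125b-5p also differed between RS_Rap and DMSO, by -0.20 and 0.28 (adjusted p = 0.0321 for both).

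miR-667 and miR-690 fell from unequal arrays. miR-667, also of the Dlk1-Dio3 region (chr12:109720006-109720097), read -1.65, -1.74, -2.20 and -1.76 against 0.22, 0.29, -0.45 and 0.40. miR-690, inside Fgf12, read -0.88, -0.76, -1.22 and -0.85 against 0.45, 0.48, -0.19 and 0.28. In both, RS_Rap 3 and RR_Rap 3 were the lowest of their groups, and the groups did not overlap. Of the 50 strands in the list named for the Dlk1-Dio3 region, 5 rose and 9 fell with a median of 0.02. Thus 14 of 50 were called, a share near the 28.8% of all probes. The list was matched by name and takes in miR-342-3p (0.45, called higher), miR-345-5p and miR-330, so these are not counts of the region alone.

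Other families moved little or in part. Of 13 let-7 and miR-98 strands, which restrain RAS, MYC and LIN28 targets, 3 fell and 1 rose, where 13.7% and 15.1% of all probes did. The fall of let-7i was 0.35 ± 0.05, that of let-7b 0.24 and that of let-7c 0.14. The member that rose was let-7d, by 0.24, a sign that reversed without loess, with median or spike-in centring and in the value table. The let-7c call was lost without any 1 of 7 arrays (each RS_Rap array and RR_Rap 1, 3 and 4, adjusted p up to 0.106). miR-100, which lowers mTOR and Raptor, fell by 0.43 ± 0.14 (adjusted p = 0.0364), a call lost without any 1 of RS_Rap 1, 2 and 3 or of the RR_Rap arrays (adjusted p up to 0.102), while miR-99b stood at 0.03 (95% interval -0.09 to 0.15). In the miR-199 and miR-214 list, made in part from the Dnm3os transcript, miR-214 fell by 0.41 ± 0.06 and miR-199a-3p/199b by 0.41 ± 0.05. The latter probe by its name also reads miR-199b, so its value is not that of Dnm3os alone. miR-199a-5p fell by 0.27 ± 0.08, a call lost without RS_Rap 1 or RR_Rap 1, 3 or 4 (adjusted p up to 0.0865).

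Some lists held few calls or 0. Of all probes 28.8% were called. In the miR-23/27/24 list, 0 of 7 were called, with 95% intervals from -0.52 to 0.27. In the miR-181 list, 0 of 5 were called, with intervals from -0.25 to 0.22, and in the miR-15/16 list 1 of 8 (miR-15b*, higher by 0.15), with a median of 0.02. Medians of both latter lists turned negative without loess, with spike-in centring, in the value table and in Hy3 alone, that of miR-15/16 with median centring as well (-0.21). A p over the threshold does not show that these miRNAs were equal in both groups.

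**Figure D5:**
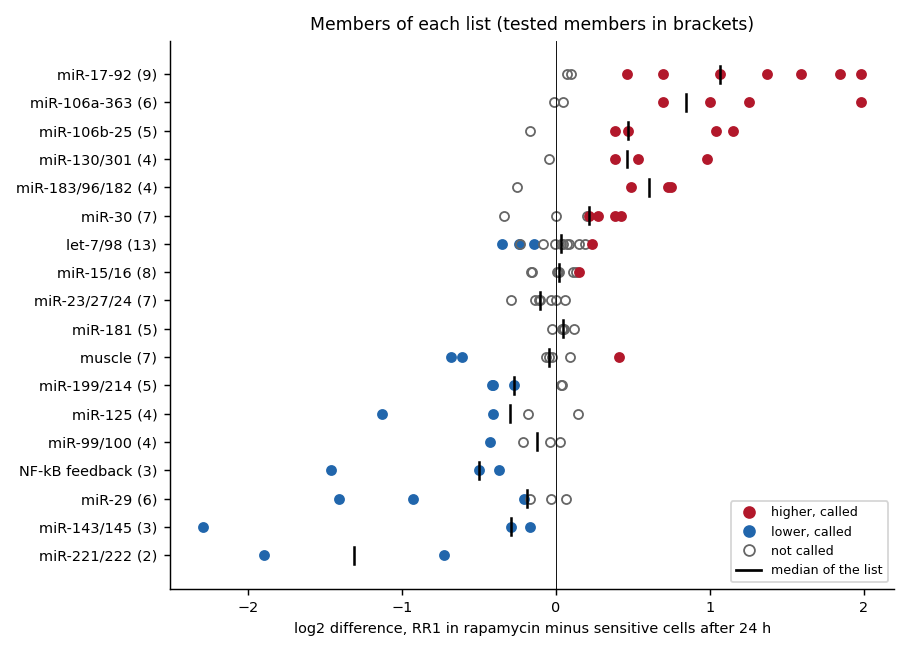
Log2 differences (RR_Rap minus RS_Rap) of the members of 18 lists are plotted with filled red points for those called higher, blue for those called lower and open points for the rest, and a black bar at the list's median. The miR-17 type clusters lie to the right, with medians of 0.47 to 1.06, and the lists of miR-221 with miR-222, of miR-143 with miR-145 and of NF-kB responsive miRNAs to the left.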

How the data were processed

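Total RNA of BC3H1 cells was measured on Exiqon miRCURY LNA arrays (v10.0) by the submitters. The deposited files hold spot intensity values made, per the file headers, by version 9.5.3.1 of Agilent Feature Extraction, with mean and median pixel signals and median local background in both channels, not normalized. The deposited value table holds log2 values, which correlated at 0.977 to 1.00 with the uncorrected log2 ratios and had array medians of 0.393 to 0.604, hence uncentred. Its way of summarising spots is unknown, and it served only as an alternative. One label makes the pool from equal amounts of 3 conditions and another from 9 samples, while 12 arrays are given, so its makeup is not settled. No dye was swapped. The number of columns of per-sample values left unused was 0.

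In limma 3.58.1 (R 4.3.3) background was corrected with normexp and an offset of 50, which shrinks changes of dim probes. Ratios were normalized by loess within arrays with control spots at weight 0, and unflagged spots (4 per probe) were averaged. The fit took all 12 arrays, with Benjamini-Hochberg adjustment over 417 probes and a threshold of 0.05. To count as above the negative controls, a probe needed a median Hy3 signal over that of all 7 control probes on at least 3 of 4 arrays of RR_Rap or RS_Rap. The software's own flag for this was set on nearly all of 9468 spots and removed no probe. The fit was tested on simulated ratios with independent normal errors and no scaling step, which does not bear on the choice of scaling. Named miRNAs are the 15 highest and 15 lowest called ones that do not overlap and lie above the negative controls, list members (all of up to 5, otherwise up to 4), all of the miR-17 type, miR-143/145, miR-221/222, miR-29 and muscle lists, and up to 4 called ones below the controls. Members and lists were chosen with earlier results of these data known. Mature sequences and positions are from RefSeq (GRCm38.p6), joined by name for 215 probes. Alternatives varied background, loess, scaling, signal, arrays, weights, filter and block. The setting named Hy3 alone took log2 of background-corrected Hy3 signals, quantile-normalized to a shared distribution over the arrays, without the pool. It is therefore not the signal as scanned. Replicate numbers were not treated as pairs. The number of arrays limits precision.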

Additional observations from a re-analysis of the deposited data

Results flagged for a closer look

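Single arrays stood apart from their 3 group mates, by Dixon's test at the 95% level, in 18 of 186 groups of 4 examined (9.68%, where chance gives about 1 in 20). In RR_Rap, array 2 did so for miR-143 (-1.10), miR-22 (-1.11), miR-146a (-0.53), miR-199a-5p (-0.27), miR-199a-3p/199b (-0.22) and miR-206 (0.22), each nearer to RS_Rap than its mates. It also did so for miR-129-5p (-0.46), let-7b (-0.12) and miR-183* (-0.41), each farther from RS_Rap than its mates. RR_Rap 3 stood apart for miR-133a (-0.21), miR-363 (0.27) and miR-31* (0.44), and RR_Rap 1 for miR-675-5p (-1.46). In RS_Rap the arrays were 1 for miR-130b (-0.72) and miR-199a-5p (0.089), 2 for miR-494 (-0.25) and miR-20b* (0.10), and 3 for miR-142-3p (0.44). RR_Rap 2 was also the dim array described for miR-17, and its part in these values was not tested.

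Of 12 probes for small nuclear and nucleolar RNAs, outside the tested miRNAs, 7 gave signals above the negative controls on all 8 arrays, and 6 of these differed between the groups (limma, adjusted over these, the mouse miRNAs and the maker's own miRPlus probes together). The probes are designed for human RNAs where named SNORD. U6-snRNA-1 was -1.03 and U6-snRNA-2 -0.94 in RR_Rap minus RS_Rap, and SNORD3@ (U3) was -0.97. SNORD2, SNORD14B and SNORD12, which are made from introns of host genes, were at 0.76, 0.63 and 0.55. SNORD13, also above the controls on all 8, stood at 0.15 (adjusted p = 0.193). Over all 12 probes, 3 were higher, 4 lower and 5 not called.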

How the results depend on the processing

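The 120 calls (63 higher, 57 lower) became 246 (135 and 111) with array median centring in place of loess, 54 (29 and 25) in Hy3 alone, 183 (99 and 84) with array weights, 121 (21 and 100) without loess, 133 (26 and 107) with spike-in centring, 88 (41 and 47) in the processed signals and 136 (15 and 121) in the deposited value table. Leaving out 1 array gave 52 to 76 higher and 42 to 69 lower calls. With the replicate number as a block there were 113 calls. Same-numbered arrays of both groups deviated with r of -0.109 to 0.058 and differently numbered ones with -0.161 to 0.227, and 0 of 4 correlated best with its own number, so the block marks no pairing shown by the design. Loess through mouse spots alone, chosen after seeing the data, gave 119 (51 and 68). The split between higher and lower moved with the scaling. Signs reversed without loess, with median centring, with spike-in centring and in the value table, in that order, for miR-320 (-0.059, -0.011, -0.046, -0.16), miR-668 (-0.26, -0.21, -0.25, -0.26), miR-30e (-0.072, -0.025, -0.060, -0.077), miR-130a (-0.27, -0.22, -0.25, -0.27), miR-30a (-0.22, -0.17, -0.20, -0.21), miR-30c (-0.33, -0.28, -0.32, -0.34), miR-107 (-0.16, -0.11, -0.15, -0.21), let-7d (-0.51, -0.46, -0.49, -0.26) and miR-30b (-0.38, -0.33, -0.37, -0.38). miR-183 reversed in 3 of these, without loess (-0.031), with spike-in centring (-0.018) and in the value table (-0.069). With median centring miR-133a (0.13), miR-133b (0.12), miR-675-3p (0.21) and miR-721 (0.030) reversed. In Hy3 alone miR-30b (-0.12), miR-124 (0.061) and miR-721 (0.046) did, as did miR-294 in the value table (-0.000328). The causes were not tested. Low Hy5 signal limits ratios of dim probes.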
